A study of Mus musculus with 6 samples.

Results

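The genes described here encode the microtubule motors of the cytoplasm in the mouse retina: the kinesins with their light chains and associated protein, the chains of cytoplasmic dynein, and dynactin. They were taken by symbol, as every row whose name begins with Kif and a digit, Kifap, Kifc, Klc and a digit, Dync, Dynl or Dctn. That rule found 57 of the 15465 genes: 38 kinesin genes, 13 dynein chain genes and 6 dynactin genes. RNA was sequenced from wild-type C57BL6/J retina, the single group analysed here. Other ocular tissue and genotypes that the design text speaks of are not analysed here. The labels give 3 biological replicates with 2 technical replicates each, pooled RNA of 5 mice per library preparation, and no age. Both technical replicates point to the same deposited column, so n was 3. The source labels number the samples in another way than the titles, and would put each column's technical replicates in different sources. The titles were followed, and the SDs and p-values rest on them.

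Motors carry cargo along microtubules. Most kinesins walk towards the plus end, away from the cell body in axons, and cytoplasmic dynein with its cofactor dynactin walks towards the minus end. In photoreceptors a kinesin of the second family and dynein-2 also move particles along the connecting cilium to and from the outer segment, while a separate set of kinesins builds the mitotic spindle of dividing cells.

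Levels are RPKM, read numbers scaled for transcript length and library size, so genes can be set side by side per length. The unit was inferred from the values, no source used here states the lengths behind it, and the read depth is unknown. Over all genes replicate 2 had the largest total, 302634 RPKM, ahead of replicate 1 with 275995 and replicate 3 with 249532. For the tissue label, marker lists were read by their median, which was 1323 ± 107 RPKM for 11 rod genes, 22.6 ± 3.88 RPKM for 9 ganglion cell genes, 30.0 ± 15.1 RPKM for 12 lens genes and 20.0 ± 9.4 RPKM for 10 pigment epithelium genes (SD, n = 3). The lens and pigment epithelium lists thus stood near the ganglion cell list, and only the rod list stood far above them. The sum of the lens markers was 683, 325 and 1833 RPKM in replicates 1, 2 and 3, and that of the pigment epithelium markers 509, 484 and 276 RPKM. In the test of spread given further on, 10 of 12 lens genes and 4 of 9 pigment epithelium genes tested varied between the pools. Symbols that continue a shorter symbol with a digit, or are such a shorter one, are called digit-extended here. They made up 627 of the 683 genes that varied (91.8%), against 16.6% of the genes tested, so values under them are less certain, and no motor gene has one. In a bulk sample, fewer cells of a type and less RNA per cell cannot be told apart.

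Among the dynein light chains are paralogs with like roles that differ strongly in level here, and their coding sequences are shown because reads can be told apart only where they differ. Dynll1 and Dynll2 encode the LC8 light chain, a small hub protein that binds many partners besides dynein. Dynlrb1 and Dynlrb2 encode the roadblock light chain. The sequences are from GENCODE M21 on GRCm38, start codon to stop codon, 5′ to 3′, and capitals mark the bases at which the 2 members of a pair differ. Dynll1 lies on the minus strand of chromosome 5 and Dynll2 on the minus strand of chromosome 11. Dynlrb1 lies on the plus strand of chromosome 2 and Dynlrb2 on the plus strand of chromosome 8.
Dynll1: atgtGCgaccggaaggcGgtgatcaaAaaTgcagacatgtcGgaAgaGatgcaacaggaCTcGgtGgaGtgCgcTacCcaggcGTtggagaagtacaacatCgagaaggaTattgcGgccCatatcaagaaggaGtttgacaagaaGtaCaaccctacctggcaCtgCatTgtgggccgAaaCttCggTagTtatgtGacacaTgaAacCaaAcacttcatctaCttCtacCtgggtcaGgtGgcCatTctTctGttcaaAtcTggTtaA
Dynll2: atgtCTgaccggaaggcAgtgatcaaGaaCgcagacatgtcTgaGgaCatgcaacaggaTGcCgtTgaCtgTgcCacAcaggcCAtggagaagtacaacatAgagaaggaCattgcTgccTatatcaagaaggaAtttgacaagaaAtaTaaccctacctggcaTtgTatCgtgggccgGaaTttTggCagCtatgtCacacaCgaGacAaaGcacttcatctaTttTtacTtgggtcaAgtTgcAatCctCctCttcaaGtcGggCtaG
Dynlrb1: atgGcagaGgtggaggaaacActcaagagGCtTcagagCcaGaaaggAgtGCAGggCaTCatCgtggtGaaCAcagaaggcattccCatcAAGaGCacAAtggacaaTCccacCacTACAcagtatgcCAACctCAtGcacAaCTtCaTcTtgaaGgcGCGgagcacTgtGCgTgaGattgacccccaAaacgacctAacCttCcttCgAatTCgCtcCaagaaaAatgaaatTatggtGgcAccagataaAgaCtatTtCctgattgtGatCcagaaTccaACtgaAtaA
Dynlrb2: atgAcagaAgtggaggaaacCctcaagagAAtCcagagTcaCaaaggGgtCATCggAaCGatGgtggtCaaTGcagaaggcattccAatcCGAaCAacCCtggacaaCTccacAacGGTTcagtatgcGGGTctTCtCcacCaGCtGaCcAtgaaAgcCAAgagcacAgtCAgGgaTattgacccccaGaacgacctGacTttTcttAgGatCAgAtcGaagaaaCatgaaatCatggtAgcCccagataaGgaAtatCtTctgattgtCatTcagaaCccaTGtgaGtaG

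Dynll1 and Dynll2 differ at 51 of 270 bases (81.1% identity), 46 of them at the third position of a codon, and their longest identical stretch is 16 bases. Dynlrb1 and Dynlrb2 differ at 82 of 291 bases (71.8% identity), with a longest identical stretch of 13 bases. The sharing of sequence was then searched for all 57 genes. Each 50-base window of their RefSeq-linked transcripts was looked for, on the same strand, in the transcripts of every other gene of the annotation. No window recurred for 44 of the 57, and for 48 under 1% did. The exceptions with 10% or more were Dynlt1a (59.4% of windows, most of them in Dynlt1c) and Kifc1 (47.6%, most of them in Kifc5b), so the levels of these genes are uncertain. No source used here states the read length.

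The motor genes spanned from 0.0267 RPKM for Kif2c to 187 RPKM for Klc1 in their mean over replicates, and none was listed at 0. Their median was 15.6 ± 1.35 RPKM (SD, n = 3), beside 6.09 ± 0.396 RPKM for all genes. By group the median was 47.3 ± 9.3 RPKM for dynactin, 20.0 ± 2.66 RPKM for dynein chains and 9.89 ± 0.17 RPKM for kinesins. Median transcript lengths ran the other way, with 1658 bases for dynactin, 2573 for dynein chains and 4440 for kinesins. Multiplied by transcript length in kb, the median levels lay closer together, at 55.8, 43.0 and 37.9 in the same order. A mean of 10 RPKM or more was reached by 6 of 6 dynactin genes, 10 of 13 dynein chain genes and 19 of 38 kinesin genes, against 37.8% of all genes. A level of 1 RPKM or more in every replicate was found for 45 of 57 members (78.9%), a share near the 77.5% of all genes. Under 1 RPKM in every replicate were 10 members (17.5%), against 17.3% of all genes, and 9 of these 10 were kinesins. Kif26a and Dynlt1a stood on both sides of 1 RPKM. All these are descriptions, with no test of the lists.

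**Figure D1:**
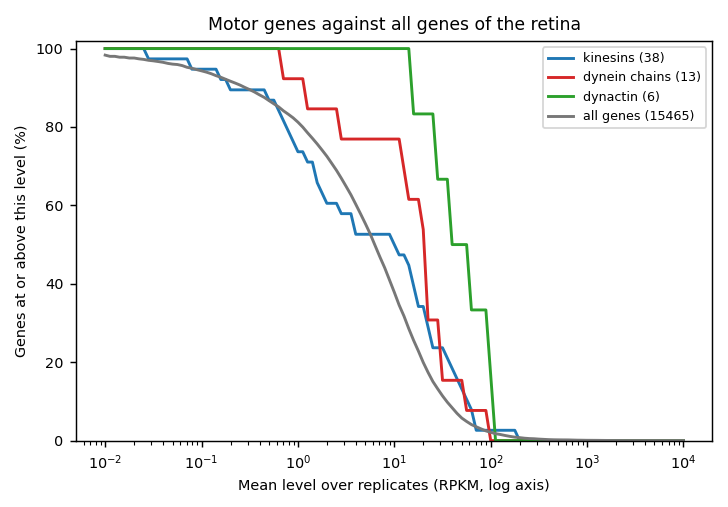
Share of genes (vertical axis, %) whose mean level over 3 replicates is at or above the RPKM on the horizontal log axis, for kinesins (38), dynein chains (13), dynactin (6) and all genes (15465). At 10 RPKM the curves stand at 50% for kinesins, 76.9% for dynein chains, 100% for dynactin and 37.8% for all genes.

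Kinesin-1, the conventional kinesin of axons, is built of heavy chains that walk and light chains that hold cargo. Of the heavy chains, Kif5a, enriched in neurons, had 33.7, 32.3 and 31.7 RPKM in replicates 1, 2 and 3. Kif5c, also a neuronal chain, had 23.5, 22.8 and 23.8 RPKM, and Kif5b, found in most cell types, had 12.4, 13.4 and 13.6 RPKM. The order Kif5a, Kif5c, Kif5b was the same in all 3 replicates, and the ranges of the 3 genes did not overlap. Kif5a exceeded Kif5b by 1.31 ± 0.11 on the log2 scale (SD, n = 3), 2.47-fold, Kif5c exceeded Kif5b 1.78-fold, and Kif5a exceeded Kif5c 1.39-fold. Kif5a held 47.2% ± 1.25 of the summed level of the heavy chains, Kif5c 33.8% ± 0.588 and Kif5b 19% ± 0.999. Multiplying each level by transcript length brought the difference between Kif5a and Kif5c to 0.07 on the log2 scale, with -0.002 in replicate 3.

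Per length, the light chains stood above the heavy chains that they bind. Klc1 had 192, 210 and 160 RPKM in replicates 1, 2 and 3 and was the highest of all 57 members, with no overlap with the next. Klc3, known from sperm flagella, had between 57.1 and 71.4 RPKM. Klc4 had 58.2, 62 and 44.8 RPKM and Klc2 46.9, 42.2 and 38.3 RPKM. Klc1, Klc3 and Klc4 were each lowest in replicate 3 and highest in replicate 2, the order of the summed RPKM of all genes, whereas Klc2 was highest in replicate 1. Klc1 exceeded Klc2 by 2.13 ± 0.16 on the log2 scale (4.39-fold) and Klc4 by 1.77 ± 0.06 (3.41-fold). It held 53.4% ± 1.05 of the light chain level, ahead of Klc3 (18.8% ± 0.284), Klc4 (15.7% ± 0.608) and Klc2 (12.2% ± 1.08). The summed light chains had 366, 386 and 300 RPKM, and the summed heavy chains 69.5, 68.5 and 69 RPKM. Their ratio, chosen after the values were seen, was 5.08 ± 0.662 (SD, n = 3), with 5.26, 5.63 and 4.35 in replicates 1, 2 and 3. It is per length and was not weighted by length. The light chain transcripts are shorter, 1849 (Klc3) to 3054.5 bases (Klc2), against 5145.5 (Kif5a) to 6856 (Kif5c) for the heavy chains.

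Kinesin-2 moves intraflagellar transport particles to the outer segment as a trimer of Kif3a, Kif3b and the associated protein Kifap3. Kif3b had 19.5, 22.8 and 22.8 RPKM in replicates 1, 2 and 3, Kifap3 20.4, 23.2 and 20.7 RPKM and Kif3a 13.4, 15.7 and 13.8 RPKM. Kif3b and Kifap3 overlapped, and Kif3a lay below both in every replicate. Kif3a stood at -0.60 ± 0.10 against Kif3b on the log2 scale, that is 1.52-fold lower. Kifap3 exceeded Kif3a by 0.58 ± 0.02, 1.5-fold, with the smallest SD of the 26 ratios taken. Kif3c, which pairs with Kif3a in neurons in place of Kif3b, had 16.2, 13.6 and 13.8 RPKM and was highest in replicate 1. It was 1.49-fold lower than Kif3b, and it overlapped with Kif3a. Kif3b and Kif3c together reached 2.54 ± 0.19 times their common partner Kif3a, a ratio chosen after the values were seen. Kif17, a homodimer of this family that acts in neuronal dendrites and in zebrafish photoreceptors, had only 1.71, 1.75 and 1.51 RPKM. Kif17 was 8.19-fold lower than Kif3a (-3.03 ± 0.12 on the log2 scale), and with a pseudocount of 1 the ratio was -2.52.

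**Figure D2:**
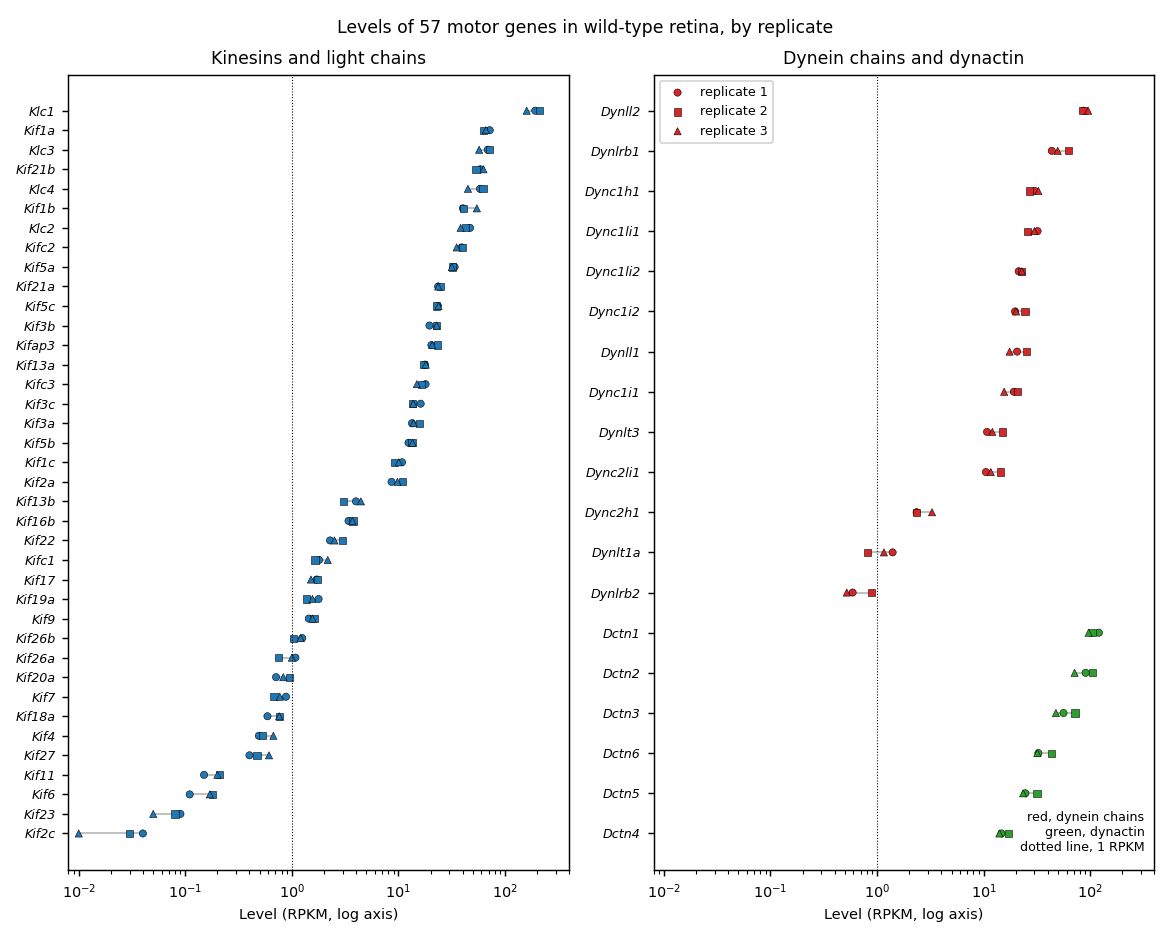
Level of each of the 57 genes in replicates 1, 2 and 3 (circle, square and triangle) in RPKM on a log axis, kinesins on the left, dynein chains (red) and dynactin (green) on the right, with grey bars over the range and a dotted line at 1 RPKM. Klc1 stands alone at the top with 160 to 210 RPKM, and below Kif2a (8.61 to 10.8 RPKM) the kinesins drop to under 5 RPKM.

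The kinesin-3 family carries vesicles and organelles. Kif1a, the motor of synaptic vesicle precursors, had 71.8, 62.7 and 66.1 RPKM in replicates 1, 2 and 3 and was the highest motor heavy chain. Kif1b, whose isoforms move mitochondria or synaptic vesicle precursors, had 40.2, 41.1 and 54.4 RPKM and was highest in replicate 3. Kif1a exceeded Kif1b in 3 of 3 replicates, by 0.58 ± 0.28 on the log2 scale (1.49-fold). Multiplied by transcript length the ratio was 0.27, with -0.02 in replicate 3. The weighted ratio is uncertain, as it rests on median lengths of 5661 bases for Kif1a and 6991 for Kif1b. The window search held 8377 and 15028 windows for them, more than transcripts of those lengths can hold. The ratio per length varied between replicates, with 0.83, 0.61 and 0.28 in replicates 1, 2 and 3. Kif13a, which moves endosomal and mannose 6-phosphate receptor vesicles, had between 17.3 and 18 RPKM and the 3 values lay close together. Kif1c, linked to transport between Golgi and endoplasmic reticulum, had 10.8, 9.25 and 10.1 RPKM, 4.44-fold below Kif1b. The scaffold-binding Kif13b had between 3.04 and 4.44 RPKM and was lowest in replicate 2, and Kif16b, an early endosome motor, had between 3.4 and 3.74 RPKM. Kif1a held 45.5% ± 3.19 of the summed family level and Kif1b 30.6% ± 3.8.

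Of the kinesin-4 family, the motors that restrain microtubule growth in neurons led. Kif21b had 58.8, 53.5 and 62.8 RPKM in replicates 1, 2 and 3 and Kif21a 23.6, 24.7 and 23.6 RPKM. Kif21a lay below Kif21b in every replicate, at -1.28 ± 0.15 on the log2 scale (2.43-fold lower). Kif21b held 69.3% ± 2.1 of the family and Kif21a 28.5% ± 2.19. The other measured members were low: Kif7, the Hedgehog pathway kinesin of the cilium tip, had between 0.68 and 0.88 RPKM, the chromosome motor Kif4 had between 0.49 and 0.67 RPKM, and Kif27, the closest relative of Kif7, had between 0.4 and 0.61 RPKM. These 3 were under 1 RPKM in every replicate.

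Among kinesin-14 motors, which walk towards the minus end, the neuronal Kifc2 had 39.2, 39.8 and 35.2 RPKM in replicates 1, 2 and 3 and Kifc3 18, 16.6 and 14.9 RPKM. Kifc2 exceeded Kifc3 by 1.20 ± 0.07 on the log2 scale (2.31-fold), with no overlap. The spindle motor Kifc1 had between 1.65 and 2.17 RPKM, a value that may include reads of Kifc5b. Kif2a, a depolymerase of microtubule ends that acts in neurons, had 8.61, 10.8 and 9.78 RPKM, and its mitotic relative Kif2c had 0.04, 0.03 and 0.01 RPKM, the lowest of all members. Their ratio was 6.28 ± 0.28 on the log2 scale and 3.38 with a pseudocount of 1, so its size is set by the pseudocount.

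The remaining 10 kinesins, most of them mitotic or from motile cilia, were all low, with means between 0.0733 and 2.60 RPKM. Kif22, a chromosome arm motor, led per length with 2.28, 3 and 2.51 RPKM in replicates 1, 2 and 3. Weighted by length its share of the 10 was 12.4%, against 26.6% ± 3.19 per length, and Kif26b led in its place. Kif11, which drives spindle poles apart, had between 0.15 and 0.21 RPKM, and Kif20a, a motor of cytokinesis, had between 0.71 and 0.95 RPKM. Kif23, another motor of cytokinesis, was the lowest of the 10 with between 0.05 and 0.09 RPKM. Kif18a, which acts in chromosome alignment, had between 0.59 and 0.76 RPKM. Kif9 and Kif6, known from motile cilia, had between 1.44 and 1.61 RPKM and between 0.11 and 0.18 RPKM. Kif19a, which limits the length of cilia, had between 1.37 and 1.78 RPKM, Kif26b between 1.04 and 1.25 RPKM and Kif26a between 0.75 and 1.08 RPKM. No value of these 10 passed 3 RPKM in any replicate. Of 18 measured genes of a proliferation list, the median was 0.398 ± 0.0938 RPKM (SD, n = 3), and 6 reached 1 RPKM in each replicate. The list was led by Cdk1 (12.4 ± 1.58 RPKM, under a digit-extended symbol), Pcna (10.2 ± 1.73 RPKM) and Ccna2 (7.23 ± 0.64 RPKM).

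Cytoplasmic dynein-1 is a dimer of the motor chain Dync1h1 with intermediate, light intermediate and light chains. Dync1h1 had 30.2, 26.9 and 32.6 RPKM in replicates 1, 2 and 3. The light intermediate chains, which bind activating adaptors, had 32.1, 26 and 30.0 RPKM for Dync1li1 and 21.3, 22.8 and 22.9 RPKM for Dync1li2. The intermediate chains, the contact with dynactin, had 19.7, 24.5 and 20.2 RPKM for Dync1i2 and 19.2, 20.8 and 15.6 RPKM for Dync1i1, the form enriched in neurons. All 5 chains thus lay within 15.6 to 32.6 RPKM. Dync1li1 exceeded Dync1li2 in 3 of 3 replicates, by 0.39 ± 0.20 on the log2 scale. That order is per length. Multiplying by transcript length, 2601 bases for Dync1li1 and 4627 for Dync1li2, favours the longer transcript by construction and gave -0.44. Dync1i2 and Dync1i1 overlapped and differed by 0.21 ± 0.17, with 0.04 in replicate 1. The intermediate chains together reached 1.36 ± 0.299 times Dync1h1, and the light intermediate chains 1.73 ± 0.101 times, both ratios chosen after the values were seen. The summed level of the 5 chains was 123, 121 and 121 RPKM, a mean of 122 ± 0.833 RPKM. These sums are of deposited values, not scaled between replicates.

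Dynein-2 returns intraflagellar transport particles from the cilium. Its motor chain Dync2h1 had 2.35, 2.33 and 3.28 RPKM in replicates 1, 2 and 3 and was highest in replicate 3, and its light intermediate chain Dync2li1 had 10.5, 14.3 and 11.7 RPKM and was highest in replicate 2. Dync1h1 exceeded Dync2h1 by 3.46 ± 0.18 on the log2 scale (11-fold), whereas Dync1li1 exceeded Dync2li1 by 1.27 ± 0.38 (2.41-fold). Of the summed level of these 2 chains, Dync2li1 held 81.9% ± 3.97 per length, and weighting by length brought its share to 42.6%. The weighted share is uncertain, because it rests on a median length of 8432 bases for Dync2h1. The window search held 14104 windows for Dync2h1, more than a transcript of that length can hold. The dynein-2 subunits named next are not in the summed level of the 2 chains. Further dynein-2 subunits under older symbols had 11.9 ± 0.386 RPKM for Wdr60, 7.15 ± 0.219 RPKM for Wdr34 and 6.99 ± 1.14 RPKM for Tctex1d2. The means of these 3 lay between those of Dync2h1 and Dync2li1. Wdr60 and Wdr34 have digit-extended symbols.

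The light chain paralogs whose sequences are printed above were unequal in level. Dynll2 had 86.6, 85.7 and 95.5 RPKM in replicates 1, 2 and 3, against 20.6, 25.4 and 17.5 RPKM for Dynll1. Every replicate of Dynll2 exceeded every replicate of Dynll1, which stood 4.25-fold lower (-2.09 ± 0.34 on the log2 scale). Dynlrb1 had 43.6, 62.7 and 49.6 RPKM and Dynlrb2, best known from ciliated and testis tissue, 0.59, 0.89 and 0.52 RPKM. The difference was 6.10 ± 0.20 on the log2 scale (68.5-fold), after Kif2a over Kif2c the largest of the 26 ratios, and 4.98 with a pseudocount of 1. Of the Tctex type chains, Dynlt3 had between 10.8 and 15.1 RPKM. Dynlt1a, of the family that binds the rhodopsin tail, had between 0.82 and 1.4 RPKM, and 54.9% of its windows recur in Dynlt1c. As its level is uncertain for this reason, no ratio of Dynlt1a to another gene was taken. It remains in the light chain sum, the medians and the order of the members. Dynll2 held 50.7% ± 5 of the light chain level, Dynlrb1 29.2% ± 3.27 and Dynll1 12% ± 1.78.

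Dynactin links dynein to cargo and makes it processive. All 6 Dctn genes were above 14 RPKM in every replicate. Dctn1, the Glued subunit that binds both dynein and microtubules, had 120, 106 and 96.6 RPKM in replicates 1, 2 and 3. Dctn2, dynamitin, had 90.6, 106 and 71.4 RPKM and overlapped with Dctn1. Dctn3, the third protein of the shoulder, had 56.1, 72 and 47.7 RPKM. The subunits of the pointed end were lower, with 32.6, 43.4 and 31.9 RPKM for Dctn6, 24.7, 31.6 and 23.5 RPKM for Dctn5 and 14.7, 17.1 and 14.1 RPKM for Dctn4. Against Dctn1, Dctn2 stood at -0.28 ± 0.24 on the log2 scale, Dctn3 at -0.89 ± 0.30, Dctn6 at -1.59 ± 0.30, Dctn5 at -2.02 ± 0.28 and Dctn4 at -2.80 ± 0.21. Each was lower than Dctn1 in 3 of 3 replicates, by 0.001 only for Dctn2 in replicate 2. Dctn2 to Dctn6 were highest in replicate 2, and Dctn1, with the longest transcript of the 6, in replicate 1. On the same deposited values, 60.5% of all genes were highest in replicate 2.

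Dync1h1 stood 3.58-fold below Dctn1 per length (-1.84 ± 0.24 on the log2 scale). Multiplied by transcript length the ratio was -0.07, with 0.21 in replicate 3. The dynactin subunits outside the symbol rule were led by genes near the level of Dctn3: Capzb had 66.7, 75.3 and 60.3 RPKM, and the filament subunits Actr1b and Actr1a had 65.5, 64.3 and 60.3 and 59, 65.4 and 50.4 RPKM. All 6 had 1 RPKM or more in each replicate, with means between 1.76 and 67.5 RPKM, and their median was 44.6 ± 5.77 RPKM (SD, n = 3). Actr1a and Actr1b together reached 1.14 ± 0.098 times Dctn1, a ratio chosen after the values were seen.

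**Figure D3:**
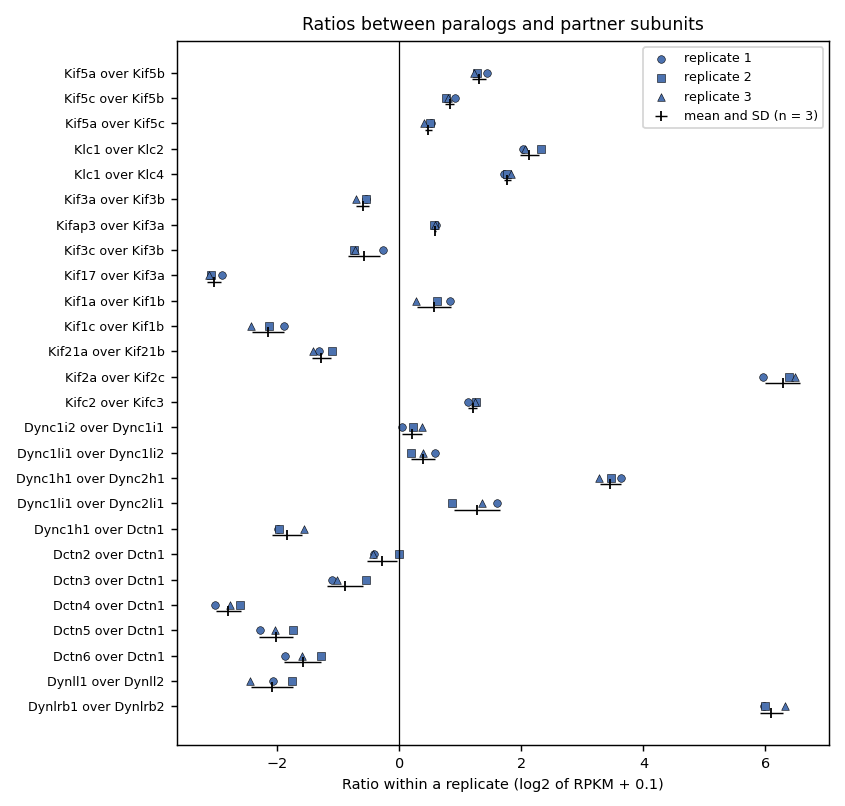
Log2 ratio of RPKM + 0.1 between the 26 gene pairs within each of 3 replicates (symbols), with the mean and SD below them, numerator named first and 0 meaning equal levels. All 26 pairs keep 1 side of 0 in every replicate, from -3.03 for Kif17 over Kif3a to 6.28 for Kif2a over Kif2c.

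In all, 27 pairs had been listed, of which 26 had rows for both genes. The numerator was higher in 3 of 3 replicates for 14 pairs and the denominator for 12. The ranges of the deposited values did not overlap in 24 of the 26, the exceptions being Dync1i2 over Dync1i1 and Dctn2 over Dctn1. No share over other gene pairs stands beside these counts, so they are not read as a trait of these pairs. The ratios had SDs of 0.02 to 0.38 (log2). With 3 replicates, the smallest p of an exact two-sided sign-flip permutation test is 0.25, and every pair had that value, also after Benjamini-Hochberg adjustment over the 26. No pair therefore passed a test. In the order of all 57 members by mean, 9 of 56 neighbours did not overlap in their ranges and 47 did. The 9 steps lay below Klc1, Dctn1, Kif2a, Kif16b, Kif22, Kif9, Kif27, Kif6 and Kif23. Each step sets a gene against the next by mean only. Dctn1 did not overlap with the next, Dynll2, but did overlap with Dctn2, which follows Dynll2. No share over all genes stands beside this count, so it is not read as a trait of the members.

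Genes that serve these motors were described from lists. All 18 kinesin cargo adaptors and partners listed reached 1 RPKM in each replicate, with a median of 33.2 ± 1.93 RPKM (SD, n = 3). Among its leading genes were Rhot2 (142 ± 12.6 RPKM), a mitochondrial anchor of kinesin-1, and Madd (78 ± 5.44 RPKM), a partner of Kif1a and Kif1b. Of 16 measured dynein regulators and adaptors, 14 did so, with a median of 6.57 ± 0.938 RPKM. Ndel1 (24.4 ± 2.99 RPKM), which acts with Lis1 on dynein, Hook1 (23.7 ± 1.97 RPKM), an activating adaptor, and Numa1 (23.6 ± 1.16 RPKM), which anchors dynein in mitosis, led. Rab11fip3, named here after its values were seen, had 30.3, 4.53 and 26.5 RPKM in replicates 1, 2 and 3 under a digit-extended symbol. Axonemal dyneins, the motors of motile cilia, had a median of 1.02 ± 0.0975 RPKM over the 10 genes with a row, out of 37 symbols listed. Dnalc4 led with 42.5 ± 7.8 RPKM, followed by Dnalc1 with 9.8 ± 0.755 RPKM and Dnaic2 with 3.88 ± 0.255 RPKM, and 5 of the 10 reached 1 RPKM in each replicate.

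The spread between the 3 pools was then tested for each gene with limma's robust trended prior, on log2(RPKM + 0.1), over 12562 genes whose mean reached 1 RPKM. Of the 46 motor genes tested, 0 varied beyond genes of their level at an adjusted p under 0.05, against 5.44% of all genes, and 0 at an unadjusted p under 0.05, against 8.37% (limma). Both shares of all genes rest mainly on digit-extended symbols, which no motor gene has. In a repeat without them, chosen after the data were seen, 0 of 46 members were called, against 0.936% of all genes. At an unadjusted p under 0.05 there were 4 of 46, namely Dync2h1, Dynlt1a, Kif13b and Kif1b, against 6.15% of all genes. On simulated data the test missed all of the smallest shifts planted in 1 replicate, of 1 on the log2 scale. It called nearly all of the largest, of 3 on that scale, so a count of 0 does not show that levels were equal. Limma's prior without robust estimation called 0 members and 0 genes. The smallest adjusted p among members was 0.668 for Dynlt1a (limma, robust prior), whose level is uncertain because of its shared windows. The median SD was 0.153 on the log2 scale for the 46 members and 0.147 for all genes tested. Members with the widest spread were Dynlt1a (SD 0.44 on the log2 scale), Kif13b (0.39), Dync2h1 (0.37) and Kif1b (0.34). Kif13b, Dync2h1 and Kif1b were highest in replicate 3, the pool with the highest lens markers, and Dynlt1a was highest in replicate 1. All 4 were lowest in replicate 2 after scaling. After scaling, 14 of 46 members (30.4%) had the order of the summed lens markers (replicate 3, then 1, then 2), against 20.2% of all genes. Over all genes of 5 kb or more, the median deviations had the same order, with 0.14, 0.002 and -0.15 in replicates 3, 1 and 2. Kif13b, Dync2h1 and Kif1b have median transcript lengths of 5603, 8432 and 6991 bases. The window search held 14104 windows for Dync2h1 and 15028 for Kif1b, more than a transcript of the median length can hold. For these genes the median thus stands for transcripts that differ, and the length of the form expressed is uncertain. The median length was 3398 bases for all 57 members and 2817 for all genes. A part of the lens in the levels of members was not tested, and it was not separated from length. In the regulator lists, Rab11fip3 was called (adjusted p = 0.00033, limma).

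The spread of the motor genes went with transcript length. After scaling, replicate 2 was highest in 6 of 7 members with transcripts under 2 kb, and lowest in 15 of 16 members of 5 kb or more. For all genes the shares were 63.9% and 73.8%. The median deviation of replicate 2 was 0.14 on the log2 scale for short members and -0.21 for long ones, beside 0.11 and -0.15 for all genes. Replicate 3 went the other way, with -0.07 for short and 0.14 for long members. Among members, Dctn3 (929 bases) stood 0.19 above its mean in replicate 2 and Dynlrb1 (684 bases) 0.16 above, whereas Dync1h1 (14342 bases) stood at -0.27 and Kif21b (9115 bases) at -0.25. Across the 46 genes, Pearson's r between log length and deviation was -0.68 in replicate 2, 0.59 in replicate 3 and 0.26 in replicate 1. Over all 12395 genes with a length it was -0.14, 0.13 and 0.05 in the same order. Spearman's rho was -0.73 in replicate 2, 0.66 in replicate 3 and 0.23 in replicate 1 over the members, beside -0.55, 0.43 and 0.09 over all genes. These are correlations across genes of the same 3 libraries, and genes are not replicates. With the trend of all genes on length removed, the median SD became 0.07 for dynactin (0.16 before), 0.14 for dynein chains (0.18 before) and 0.11 for kinesins (0.14 before). The median over all genes was also smaller, 0.12 (0.15 before). The SD was smaller for 36 of the 46 members. The share of all genes with a smaller SD was not counted, so this is not read as a trait of the motor genes. RNA integrity values are not among the labels, and the part of RNA quality in this pattern was not tested.

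**Figure D4:**
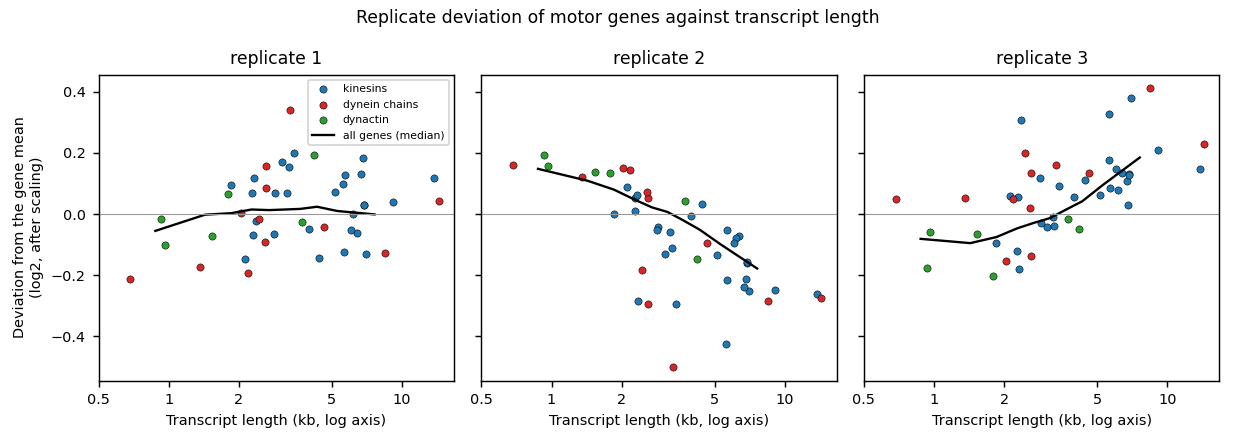
Deviation of each replicate from the gene's mean over replicates (vertical axis, log2 after scaling) against transcript length (kb, log axis) for 46 motor genes, with the median over all genes in 10 length classes as a black line. In replicate 2 short genes lie above 0 and long genes below, with Dctn3 at 0.19 and Dync1h1 at -0.27, and in replicate 3 the slope is opposite.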

How the data were processed

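RNA of wild-type mouse retina was sequenced, and 1 table per biological replicate was deposited. Per the submitters' processing notes the tools were GSNAP and HTSeq with genome build mm9, with no version. The deposited values were taken as RPKM, inferred from the values: multiplied by transcript length in kb they gave totals of 785335 (replicate 1), 828466 (replicate 2) and 728590 (replicate 3). FPKM would look the same, depth is unknown, and no interval or detection limit is given. Each table held 15468 rows. For 3 symbols a second, identical row was dropped.

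Members and gene lists were chosen with earlier results of these data known. Values per replicate were given for the leading member of each family, the genes of the listed pairs, members called as varying or listed at 0, and the highest and lowest member of each group. Other members were given by range or count, and the lists by counts, median and up to 3 leading genes, of which 1 is not reported here. 22 further symbols of these families on the lists have no row and were not analysed here. Lengths are medians over RefSeq-linked transcripts of GENCODE M21 (15233 genes, 98.5%, all 57 members). Where the transcripts of a gene differ, as for Dync2h1 and Kif1b, the median need not be the length of the form expressed. Length-weighted values of such genes are uncertain for this reason. As M21 is of another build, it served only for names, lengths and sequences.

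For the test of spread and the deviations, each replicate was scaled by a factor from trimmed log ratios to the mean (0.983, 1.09 and 0.932; the outer 30% by ratio and 5% by level dropped on either side). That test set each gene's variance on log2(RPKM + 0.1) against limma's prior in an F test (limma 3.58.1, R 4.3.3, statmod 1.5.0), with Benjamini-Hochberg adjustment. On simulated data it called nearly all of the largest shifts planted in 1 replicate and none of the smallest. Ratios used deposited values plus 0.1. Digit-extended symbols (2656 genes, 0 members) continue a shorter symbol of the files or RefSeq with a digit, or are that shorter symbol. Tables were handled in Python 3.11.15 with pandas 2.3.3.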

Additional observations from a re-analysis of the deposited data

How the results depend on the processing

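No paired analysis was possible because there was only 1 group. The count of members varying between replicates (0) was the same under each of the 9 alternatives run, limma without the robust prior, no filter, a pseudocount of 1, no scaling and each replicate left out among them. Removal of a length trend and leaving out digit-extended symbols were chosen after seeing the data. Unadjusted p under 0.05 was reached by Kif13b without replicate 1, Kif1b without replicate 2, Dynlt1a without replicate 3, and these 3 with Dync2h1 without digit-extended symbols. The shares of all genes at that p were 7.08%, 5.8%, 7.03% and 6.15% in the same order. The number of genes called among all tested went from 683 to 0 without the robust prior, 303 without replicate 2 and 98 without those symbols. The cause was not tested.

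Multiplying RPKM by transcript length moved most levels by construction. The median was then 37.9 for kinesins (9.89 RPKM before), 43.0 for dynein chains (20.0 before) and 55.8 for dynactin (47.3 before). The median leading share was 54.7% (48.9% before). The ratio of Dync1li1 to Dync1li2 turned to -0.44. Of the 26 ratios, 22 kept their direction in every replicate. Kif5a over Kif5c, Kif1a over Kif1b and Dync1h1 over Dctn1 became mixed, and 6 ratios moved by less than their SD. A pseudocount of 1 moved 5. With a replicate left out, no ratio or leading share moved by more than its SD. With so few replicates, leaving any of them out cannot shift a mean that far, whatever the values. No conclusion on the ratios or leading shares is therefore drawn from these repeats. Members at the threshold in every replicate numbered 55 at 0.1 RPKM and 34 at 10 RPKM. By mean level, a looser measure, 94.3% of all genes reached 0.1 RPKM and 37.8% reached 10 RPKM. The share of all genes in every replicate was not counted at these thresholds. With unknown depth, the levels of members under 1 RPKM carry an unknown counting error.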
